A study of Mus musculus with 9 samples.

Results

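The 9 genes described here, Tmem119, Cx3cr1, Olfml3, Gpr165, Adgrg1, Selplg, Slc2a5, Sparc and Crybb1, are known as markers of homeostatic microglia, the brain's resident macrophages in their resting state, and were taken by symbol as genes for surface and secreted proteins. All 9 are among the 22036 genes of the expression table and passed the filter on low values that left 14955 genes for testing. RNA sequencing was done on microglia sorted by flow cytometry from the brains of wild-type female C57BL/6 mice at 3 ages, with no treatment or altered allele given. The ages were 6 months for the young group, 15 months for the middle-aged group and 23 months for the old group. There were 3 libraries an age, each made from the pooled microglia of 3 mice, so the spread between libraries is one between pools and says nothing of single animals. No source used here gives the gate of the sort. The question was which of these genes differ between the ages and when.

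Surface proteins let microglia read their surroundings: chemokine and adhesion receptors bind ligands on neurons and in the matrix, transporters bring in fuel, and mucin-like proteins bind selectins on vessel walls. The resting expression programme depends on TGF-beta signalling and on transcription factors such as SALL1, and it is known to weaken when microglia become activated. Secreted members of the programme include matrix glycoproteins. Cx3cr1 encodes the receptor for the neuronal chemokine fractalkine. Gpr165 encodes an orphan G protein-coupled receptor. Adgrg1, also called Gpr56, encodes an adhesion receptor that binds collagen III and transglutaminase 2. Slc2a5 encodes the fructose transporter GLUT5. Selplg encodes the mucin-like selectin ligand PSGL-1, and Tmem119 a transmembrane protein widely used to mark microglia. Olfml3 and Sparc encode secreted matrix glycoproteins. Crybb1 encodes beta-B1-crystallin, known as a structural protein of the lens interior, so the wording surface or secreted does not describe what it is best known for.

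The genes lie on 7 chromosomes in GENCODE M21 on GRCm38, the build that mm10 names. All are protein-coding. Cx3cr1 spans chr9:119901616-120069879 on the minus strand, Sparc chr11:55394500-55423183 on the minus strand and Olfml3 chr3:103722222-103738001 on the minus strand. Slc2a5 spans chr4:150119283-150144169, Adgrg1 chr8:94974751-95014217 and Gpr165 chrX:96713441-96719388, each on the plus strand. Chromosome 5 holds the other three: Crybb1 at chr5:112255815-112269585 on the plus strand, and Tmem119 at chr5:113793729-113800516 and Selplg at chr5:113818536-113832644 on the minus strand. Tmem119 and Selplg are separated by 18.02 kb that hold 1 annotated gene and 0 protein-coding ones. Among annotated exons on either strand, Cx3cr1 alone shares bases with another gene: 78 bases, or 1.73% of its exonic sequence, overlap an antisense transcript, and no source used here says whether counting used strand.

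The promoter sequences of Gpr165, Adgrg1 and Slc2a5, the 3 genes called lower in old microglia, are shown here. Each is 300 bases of RefSeq sequence on GRCm38.p6, 250 before and 50 after an annotated transcript start, written 5′ to 3′ on the gene's strand. Adgrg1 has a pair of such windows. Capitals mark matches to 4 short motifs of factors known in macrophages, searched on both strands.
Gpr165, chrX:96713218-96713517: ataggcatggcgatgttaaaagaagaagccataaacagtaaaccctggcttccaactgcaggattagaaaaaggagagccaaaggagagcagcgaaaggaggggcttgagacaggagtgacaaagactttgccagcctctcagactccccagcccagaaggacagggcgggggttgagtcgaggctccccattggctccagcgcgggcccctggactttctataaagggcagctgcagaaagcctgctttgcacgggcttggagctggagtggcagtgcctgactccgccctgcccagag
Adgrg1, upstream start, chr8:94976859-94977158: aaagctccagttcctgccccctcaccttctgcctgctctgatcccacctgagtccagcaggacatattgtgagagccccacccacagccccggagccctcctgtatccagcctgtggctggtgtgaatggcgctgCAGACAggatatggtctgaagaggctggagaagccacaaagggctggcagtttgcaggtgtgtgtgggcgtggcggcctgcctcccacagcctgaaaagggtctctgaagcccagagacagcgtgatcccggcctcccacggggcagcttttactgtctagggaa
Adgrg1, downstream start, chr8:94984149-94984448: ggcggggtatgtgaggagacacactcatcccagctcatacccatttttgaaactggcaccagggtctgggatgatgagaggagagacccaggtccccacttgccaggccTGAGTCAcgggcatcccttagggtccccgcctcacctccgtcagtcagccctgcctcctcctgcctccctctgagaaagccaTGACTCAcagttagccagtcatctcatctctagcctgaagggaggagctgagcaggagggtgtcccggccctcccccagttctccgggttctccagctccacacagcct
Slc2a5, chr4:150119094-150119393: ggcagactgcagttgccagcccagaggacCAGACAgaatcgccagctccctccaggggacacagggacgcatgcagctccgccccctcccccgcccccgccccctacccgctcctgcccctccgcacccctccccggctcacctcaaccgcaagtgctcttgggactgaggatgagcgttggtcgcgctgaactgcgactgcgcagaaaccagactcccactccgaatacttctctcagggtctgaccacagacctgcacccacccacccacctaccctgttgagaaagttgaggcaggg

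The motifs were the PU.1 core GAGGAA, the AP-1 site TGANTCA, the MAF half-site TGCTGA and the SMAD element CAGACA, and no match overlapped another. In the downstream Adgrg1 window the AP-1 letters began 141 and 59 bases before the start. The upstream Adgrg1 window held the SMAD letters 115 bases before the start, and the Slc2a5 window held them 221 bases before it. The Gpr165 window held none of the 4. Over the 8 windows that RefSeq gave for 7 of the 9 genes, the PU.1 letters occurred in 0, the AP-1 letters in 1, the MAF letters in 2 and the SMAD letters in 4, against 28.3%, 7.81%, 19.5% and 21.0% of 32851 windows of the same length. These are matches of letters and not bound sites.

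The libraries had features that touch the results below. Along the first principal component, which held 34.7% of the variance, old library 3 stood at 29.9 and the others between -14.4 and 5.90, and its residual SD of 0.202 on the log2 scale was above the 0.0717 to 0.149 of the others. Read depth is unknown. The markers of the labelled cell type were present: all 10 microglia markers were tested, and their summed level, on the linear scale, was 1503910 to 1730620 in young, 1435540 to 1570830 in middle-aged and 1561860 to 1609210 in old libraries, so the ages overlapped. Several markers of other cells moved with age. The 15 markers of border macrophages, all detected and led by Stab1, summed to 156766 to 170159 in young, 113761 to 140689 in middle-aged and 103367 to 131219 in old libraries. Immediate early genes, 22 of 23 above the filter, summed to 479380 to 626395, 648150 to 827260 and 520901 to 584617 at the 3 ages in that order. The 14 neutrophil markers, led by Ngp, were all detected. Their sum spanned 269469 to 1060740 over the 9 libraries, with every pair of ages overlapping. Singly, 13 of the 14 had a positive middle-aged minus young difference, median 0.50. Between old and middle-aged, 13 had a negative difference, median -0.65, and 0 were called in any comparison. Of the other 10 lists, the sums of T and NK cell, oligodendrocyte and oligodendrocyte precursor markers lay higher in old than in young libraries without overlap. Those of astrocyte and neuron markers lay lower in old. Cspg4 led the precursor sum, and 1 of the 5 tested precursor markers was called higher in old against young, with a median difference of 0.046. Against young, the erythrocyte sum was higher and the B cell sum lower in middle-aged libraries. Ighm led the B cell sum, and 5 of the 8 B cell markers had a positive middle-aged minus young difference, median 0.082. Monocyte sums overlapped, but 15 of 15 monocyte markers had a positive middle-aged minus young difference, median 0.41, with 0 called there. Defining neuronal markers Rbfox3, Gad1 and Slc17a7 and the precursor markers Olig1, Olig2 and Sox10 were below the filter. The part of these shifts in the results was not tested, and in such bulk libraries fewer cells of a type and less RNA per cell cannot be told apart.

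Of the 9 genes, 3 were called lower in old microglia and none higher: Gpr165 fell to 0.546 times its young level, Adgrg1 to 0.701 times and Slc2a5 to 0.706 times. In this comparison limma called 45 of 14955 genes lower, 0.301%, and 254 higher, 1.7%, at a Benjamini-Hochberg adjusted p under 0.05. By 15 months 0 members were called by limma in either direction, where 0 genes were called lower, 0%, and 17 higher, 0.114%, although 5 members had an unadjusted p under 0.05, as had 1698 genes in all. Between 15 and 23 months 0 members were called, 0 of them with an unadjusted p under 0.05, against 2 genes called lower, 0.0134%, 24 higher, 0.16%, and 1522 at the unadjusted threshold. The middle-aged and the old libraries were both set against the same young libraries, so these comparisons are not independent.

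Without regard to a test, the old libraries lay wholly below the young ones for 6 members, Cx3cr1, Olfml3, Gpr165, Adgrg1, Slc2a5 and Sparc, where 12.3% of all genes did so, and wholly above them for 0, where 12.2% did. The middle-aged libraries lay wholly below the young ones for the same members except Sparc, 5 in all, where 10% of genes did so, and above for 0, where 11.6% did. No member separated old from middle-aged libraries, 0 lower and 0 higher, where 6.41% and 6.47% of genes did. The median log2 difference of the 9 was -0.23 for old against young, -0.23 for middle-aged against young and -0.10 for old against middle-aged, where the medians of all genes tested were -0.0086, -0.00082 and -0.0040. The difference was negative for 7, 7 and 6 of the 9 in that order, and for 52.6%, 50.4% and 51.5% of all genes. The summed border macrophage markers also lay wholly below the young range at both later ages, and their part in these differences was not tested.

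**Figure D1:**
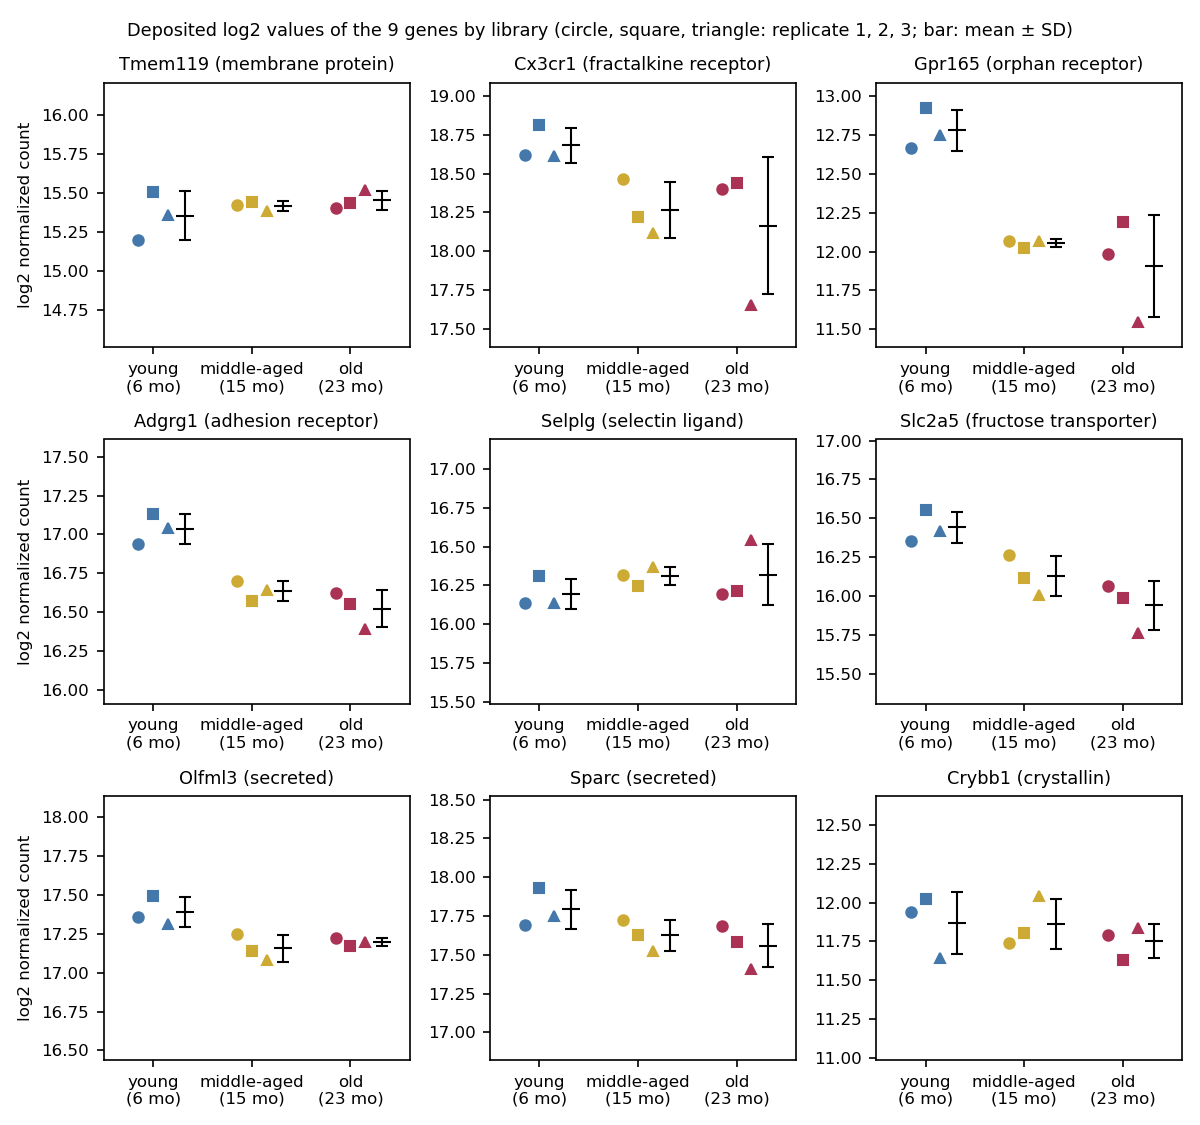
Deposited log2-scale value of each of the 9 genes in every library (circle, square and triangle for libraries 1, 2 and 3) with the mean ± SD of each age (bars), young, middle-aged and old from left to right. Gpr165, Adgrg1, Slc2a5, Cx3cr1 and Olfml3 lie lower in all middle-aged and old libraries than in any young one, while Tmem119, Selplg and Crybb1 overlap between the ages.

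Among the receptors, Gpr165 showed the largest difference. Its log2-scale values were 12.67, 12.92 and 12.75 in young libraries, 12.07, 12.02 and 12.07 in middle-aged ones and 11.98, 12.19 and 11.55 in old ones. The middle-aged values lay close together (SD 0.026), and the old ones spread on both sides of them, with old library 3 the lowest of the 9. Old minus young was -0.87 ± 0.15 (SE), with a 95% confidence interval of -1.20 to -0.55 and a limma adjusted p of 0.0166. Middle-aged minus young was -0.73 ± 0.15, which was rank 2 of 14955 from the most negative log2 difference, but its limma adjusted p was 0.113. Old minus middle-aged was -0.15 ± 0.15, limma adjusted p 0.764, and turned to 0.034 without old library 3. Without old library 3, Gpr165 stood at -0.69 for old against young, limma adjusted p 0.0138, and was also called lower in middle-aged microglia, limma adjusted p 0.0177. The call for old against young was lost without young library 1, 2 or 3, with limma adjusted p of 0.0546, 0.0668 and 0.0834 and differences of -0.93, -0.80 and -0.89.

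Adgrg1 had the smallest adjusted p of the 9. It stood at 16.94, 17.13 and 17.04 in young, 16.70, 16.57 and 16.64 in middle-aged and 16.62, 16.55 and 16.39 in old libraries, and the young libraries lay above the other 6. Old minus young was -0.51 ± 0.082 (SE), 95% confidence interval -0.69 to -0.33, limma adjusted p 0.0121. Middle-aged minus young was -0.40 ± 0.082 with a limma adjusted p of 0.117, and old minus middle-aged -0.11 ± 0.082 with 0.660. Without old library 3, old minus middle-aged was -0.049 and old minus young -0.45, limma adjusted p 0.0319. The call was lost without young library 2, at -0.47 and limma adjusted p 0.0537, and without young library 3, at -0.51 and 0.0766.

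Cx3cr1, the fractalkine receptor, varied most among old libraries, with an SD of 0.44. Its log2-scale values were 18.62, 18.81 and 18.61 in young, 18.47, 18.22 and 18.12 in middle-aged and 18.40, 18.44 and 17.66 in old libraries. Old library 3 was the lowest of the 9, and the other old libraries lay within the range of the middle-aged ones. The difference was -0.52 ± 0.18 (SE) for old against young, limma adjusted p 0.186, and -0.41 ± 0.18 for middle-aged against young, 0.423. Without old library 3, old minus young was -0.26, limma adjusted p 0.293, and old minus middle-aged turned to 0.15 against -0.10 with all libraries. As a share of the summed linear values, Cx3cr1 held 0.803%, 0.871% and 0.771% of the young libraries, 0.691%, 0.575% and 0.557% of the middle-aged ones and 0.655%, 0.667% and 0.394% of the old ones.

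Slc2a5, the fructose transporter, stood at 16.35, 16.55 and 16.42 in young, 16.26, 16.11 and 16.01 in middle-aged and 16.06, 15.99 and 15.76 in old libraries. The young libraries lay above all others, while the middle-aged and old ranges overlapped. Its old minus young difference was -0.50 ± 0.10 (SE), 95% confidence interval -0.72 to -0.28, limma adjusted p 0.0331. Middle-aged minus young was -0.31 ± 0.10, limma adjusted p 0.269, and old minus middle-aged was -0.19 ± 0.10, limma adjusted p 0.550, or -0.10 without old library 3. This call was the least stable of the 3. It was lost without old library 3, at -0.42 and limma adjusted p 0.0789, without old library 1 or 2, at 0.0514 and 0.0567, without young library 1, 2 or 3, at 0.0808, 0.103 and 0.156, and without middle-aged library 2, at 0.0624.

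The number of members called lower in old microglia was thus 3 with all libraries. It was 2 without old library 3, old library 1, old library 2 or middle-aged library 2, 1 without young library 1, and 0 without young library 2 or young library 3. Without a filter on low values it was 2, as Slc2a5 lost its call at a limma adjusted p of 0.0503. Quantile normalization gave 5, adding Olfml3 and Sparc, with 315 genes called in either direction. A fit of the young and old libraries alone gave 1, Adgrg1, with 153 genes called. Over all genes, limma called 299 with all libraries, 86 without young library 1, 122 without young library 2 and 84 without young library 3.

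**Figure D2:**
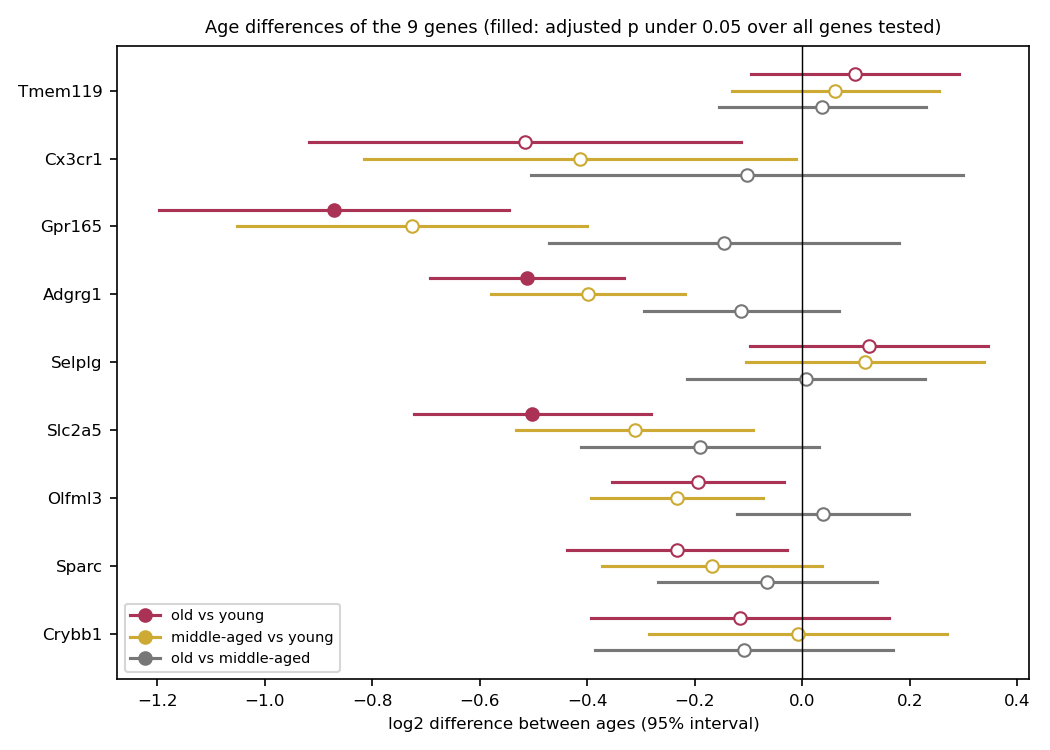
Log2 difference of each of the 9 genes for middle-aged against young, old against young and old against middle-aged, with 95% confidence intervals from limma and filled symbols where the adjusted p was under 0.05. The 3 filled symbols are Gpr165 at -0.87, Adgrg1 at -0.51 and Slc2a5 at -0.50, each for old against young.

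The other surface genes did not separate the ages. Selplg, the selectin ligand, stood at 16.14, 16.31 and 16.14 in young, 16.32, 16.25 and 16.37 in middle-aged and 16.20, 16.22 and 16.54 in old libraries. Old library 3 was its highest, the reverse of the genes above. Old minus young was 0.12 ± 0.10 (SE), 95% confidence interval -0.097 to 0.35 and limma adjusted p 0.570, and without old library 3 it was 0.012. Tmem119, the microglial marker, stood at 15.20, 15.51 and 15.36 in young, 15.42, 15.44 and 15.38 in middle-aged and 15.40, 15.43 and 15.52 in old libraries. The young libraries alone spanned the middle-aged range. Between old and young the difference was 0.10 ± 0.087, 95% confidence interval -0.095 to 0.29 and limma adjusted p 0.611, an interval that holds ratios from 0.936 to 1.22. It was 0.019 without young library 1 and 0.18 without young library 2.

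Of the secreted matrix proteins, Olfml3 stood at 17.36, 17.50 and 17.31 in young, 17.25, 17.14 and 17.08 in middle-aged and 17.22, 17.17 and 17.19 in old libraries. All libraries of the later ages lay below the young ones, by little. Its difference was -0.19 ± 0.072 (SE) for old against young, limma adjusted p 0.211, and -0.23 ± 0.072 for middle-aged against young, limma adjusted p 0.256. Sparc, a collagen-binding matricellular protein, stood at 17.69, 17.93 and 17.75 in young, 17.72, 17.62 and 17.53 in middle-aged and 17.69, 17.58 and 17.41 in old libraries. Its old libraries lay below the young ones only just, with 17.6876 in old library 1 against 17.6929 in young library 1. Old minus young was -0.23 ± 0.092, limma adjusted p 0.238, and -0.16 without old library 3. Under quantile normalization both secreted genes were called lower in old microglia, Olfml3 at -0.32 with limma adjusted p 0.0332 and Sparc at -0.34 with 0.0313.

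Crybb1, the crystallin, was the least regular member. It stood at 11.94, 12.02 and 11.64 in young, 11.74, 11.80 and 12.04 in middle-aged and 11.79, 11.63 and 11.83 in old libraries, so that the ranges of the ages overlapped. Old minus young was -0.12 ± 0.13 (SE), with a 95% confidence interval of -0.39 to 0.16 and a limma adjusted p of 0.683.

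**Figure D3:**
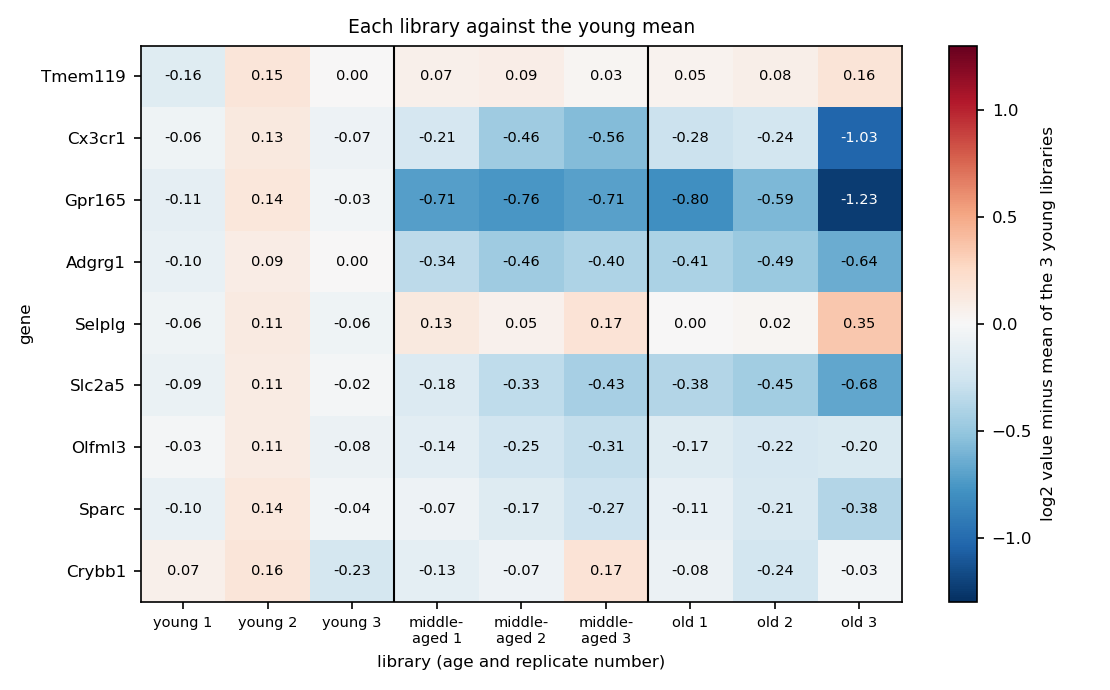
Each gene's log2-scale value in each library minus its mean over the 3 young libraries, as the colour of a cell, with libraries as columns and genes as rows. Old library 3 has the lowest value for Gpr165 at -1.23, Cx3cr1 at -1.03, Slc2a5 at -0.68, Adgrg1 at -0.64 and Sparc at -0.38, and the highest for Selplg at 0.35 and Tmem119 at 0.16.

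Whether the change before 15 months differed from the one after it was tested as a difference between the steps, old minus middle-aged less middle-aged minus young. Limma called 0 of 14955 genes, 0%, and 1181 had an unadjusted p under 0.05. Gpr165 was the 1 member among these, at 0.58 ± 0.25 (SE), unadjusted p 0.0449 and limma adjusted p 0.621, and 0.76 with limma adjusted p 0.224 without old library 3. The values of the others ran from -0.11 for Selplg to 0.31 for Cx3cr1. A difference in timing was therefore not detectable for any member at 3 libraries an age.

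The authors' deposited table for old against young gave the same 3 genes as lower at an adjusted p under 0.05. Both results come from the same libraries, so this is no separate support. No header gives the direction of the authors' fold changes, which was read from the values. Log2 fold changes in the authors' deposited table were -0.91 for Gpr165 with adjusted p 0.000176, -0.62 for Adgrg1 with adjusted p 5.98e-05 and -0.59 for Slc2a5 with adjusted p 0.000739. The authors' deposited table called 468 of 16152 genes lower, 2.9%, and 762 higher, 4.72%. For middle-aged against young, the authors' deposited table called 3 members lower: Gpr165 at -0.91 with adjusted p 5.66e-11, Adgrg1 at -0.48 with adjusted p 0.000503 and Cx3cr1 at -0.45 with adjusted p 0.0230. Slc2a5 missed the threshold in the authors' deposited table at -0.36, adjusted p 0.0535. Of 16219 genes, 410 were lower there, 2.53%, and 528 higher, 3.26%. For old against middle-aged the authors' deposited table called 0 members, with 0.466% of 15025 genes lower and 0.859% higher. No member was called higher in any of the authors' deposited tables. The authors' deposited tables and the limma fit differ in fold changes and genes tested as well as in the test, and the reason for the differing calls at 15 months was not tested. For old against young, Cx3cr1 was called by neither test; the authors' deposited table gave it -0.46 and an adjusted p of 0.157.

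Levels were compared between genes only after division by exonic length, on a log2 scale per kb. In young libraries the order was Cx3cr1 at 16.51, Sparc at 15.87, Olfml3 at 14.77, Slc2a5 at 14.67, Adgrg1 at 14.60, Tmem119 at 14.14, Selplg at 14.10, Crybb1 at 11.89 and Gpr165 at 10.60. Neighbouring ranges overlapped for Olfml3 and Slc2a5, for Slc2a5 and Adgrg1, and for Tmem119 and Selplg. In old libraries Tmem119 at 14.24 and Selplg at 14.22 stood above Slc2a5 at 14.17 and Adgrg1 at 14.08, the reverse of the young order, with the ranges of each of these neighbours overlapping. Cx3cr1 at 15.99 and Sparc at 15.64 overlapped in old libraries and did not in young ones, and in old library 3 Cx3cr1 stood at 15.48 and Sparc at 15.49. Crybb1 and Gpr165 stayed last at each age, and Gpr165 fell to 9.72 per kb in old libraries, against 10.60 in young ones. The length is the union of annotated exons, which can exceed the transcripts that microglia make and so understate a level.

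**Figure D4:**
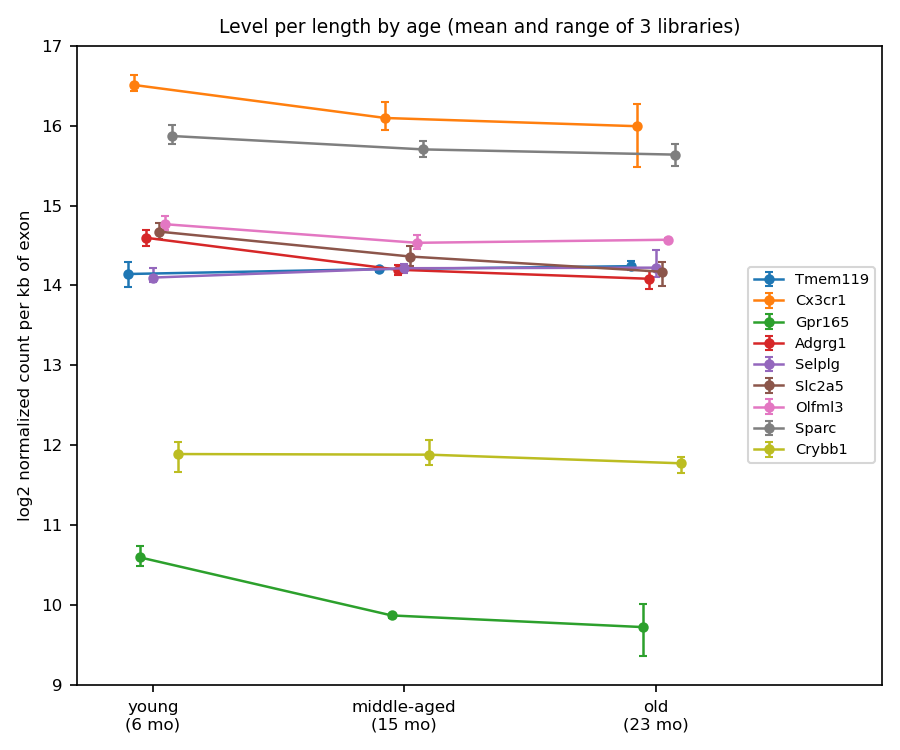
Level of each of the 9 genes per kb of exonic length on a log2 scale, as the mean and range over the 3 libraries of each age. Cx3cr1 and Sparc are at the top and Crybb1 and Gpr165 at the bottom at each age, and the 5 genes from Olfml3 to Selplg lie between 14.08 and 14.57 in old libraries, against 14.10 and 14.77 in young ones.

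The 9 genes together held 2.21%, 2.41% and 2.17% of the summed linear values in young, 2.01%, 1.79% and 1.79% in middle-aged and 1.90%, 1.86% and 1.57% in old libraries. Each gene was also set against the mean of the 9 in the same library, a difference that a constant scaling of a library cannot move. By that measure Gpr165 differed by -0.57 between old and young, and Cx3cr1, Adgrg1 and Slc2a5 by -0.21, -0.21 and -0.20. Sparc differed by 0.070, Olfml3 by 0.11, Crybb1 by 0.19, Tmem119 by 0.40 and Selplg by 0.43. These are unequal changes within a set whose own mean was 15.65 in old and 15.95 in young libraries, and so do not show that any gene held still.

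Across the 9 libraries, which share the age groups, Adgrg1 ran closely with Gpr165 (Pearson's r 0.96) and with Slc2a5 (0.96), and Slc2a5 with Sparc (0.94). Taken within ages, after removal of each age's mean, the values were 0.76, 0.87 and 0.98. Cx3cr1 and Selplg ran against each other at -0.76, or -0.37 without old library 3. Crybb1 had no value above 0.33 with any other member over all libraries. With Selplg it reached 0.50 without old library 3 and 0.53 within ages. Outside the list, Ptgs1, the cyclooxygenase COX-1, was the tested gene most like Adgrg1 (r 0.98, rho 0.92) and Slc2a5 (r 0.98, rho 0.95). Ptgs1 was called lower in old microglia at -0.37, limma adjusted p 0.0424. As it was picked for likeness to genes called lower in the same libraries, its call adds no separate support. Tmem206 was most like Gpr165 (r 0.98, rho 0.93), Surf2 most like Cx3cr1 (0.99, rho 0.97), Snx17 most like Sparc (0.98, rho 0.98), Pepd most like Olfml3 (0.95, rho 0.98), Akna most like Selplg (0.94, rho 0.88) and Ltbr most like Tmem119 (0.94, rho 0.70). Without the 2 libraries farthest from each member's median, these values lay between 0.91 and 0.98, save 0.78 for Selplg with Akna and 0.73 for Tmem119 with Ltbr. The closest gene to Crybb1, Rogdi, reached 0.87, or 0.83 without those libraries. These are likenesses over 9 libraries picked from 14955 genes, and they are given as descriptions.

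Ligand genes of the receptors were not called lower in these sorted microglia at any age. What other cells, such as neurons and vessel walls, make of these ligands was not measured. Cx3cl1, the fractalkine gene, stood close above the filter of 3.32, at 4.79 to 5.15 in every library, and of the fractalkine list of 3, which also holds the sheddases Adam10 and Adam17, 0 were called in any comparison, with a median of 0.10 for old against young. Among ADGRG1 ligands and partners 10 of 11 were tested and 1 was called: Cd9, a tetraspanin, rose by 0.57 ± 0.070 (SE) in old microglia, limma adjusted p 0.00226, and Cd9 is also on the list of activated microglia genes. Tgm2 differed by -0.018 ± 0.10 and Plxnb2, a semaphorin receptor, by 0.31 ± 0.13, limma adjusted p 0.267. The collagen gene Col3a1 was below the filter. Of 16 other adhesion G protein-coupled receptors tested, 0 were called, with a median of 0.042 for old against young, against -0.51 for Adgrg1. Among 15 selectins and glycosyltransferases of their ligands 0 were called: Selp, the gene of P-selectin, stood at 4.93 to 5.26, with an old minus young difference of 0.0076 ± 0.083.

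Of 7 other SLC2 sugar transporters tested, 0 fell and 2 rose in old microglia: Slc2a6, a lysosomal family member, by 0.80 ± 0.11 (SE), limma adjusted p 0.00604, and Slc2a1, the basal glucose transporter, by 0.51 ± 0.11, limma adjusted p 0.0472. Slc2a1 stood at 10.97, 10.84 and 10.89 in old libraries, against 10.18, 10.55 and 10.42 in young ones, without overlap. Its adjusted p lay close to the threshold of 0.05. Whether single calls outside the members hold with a library left out was not tested. Over all genes, limma called 299 for old against young, and 84 to 322 with a library left out. Slc2a3, another glucose transporter, differed by -0.23 ± 0.31 and ranged widely within ages. In the list of fructose and hexose phosphorylation, 1 of 9 was called, the glycolytic aldolase Aldoa, which rose by 0.52 ± 0.092, limma adjusted p 0.0206. Khk, the fructokinase that acts on the sugar GLUT5 carries, differed by -0.35 ± 0.099, limma adjusted p 0.109, and its old libraries, at 12.22, 12.10 and 12.16, lay below the young ones, at 12.60, 12.46 and 12.46.

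Among 10 SPARC family and SPARC-binding genes tested, Stab1 was the 1 called: this scavenger receptor gene, known to take up SPARC, fell by 0.40 ± 0.089 (SE) in old microglia, limma adjusted p 0.0496. The Stab1 call lay close to the threshold of 0.05, and whether it holds with a library left out was not tested. Stab1 is also the leading gene of the border macrophage markers, whose summed level in old libraries lay below the young range. Sparcl1, the SPARC paralog, differed by -0.20 ± 0.22. Of 7 other olfactomedin genes and 4 other beta-gamma crystallins tested, 0 were called, with medians of 0.067 and -0.092 for old against young.

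Within the lists of other homeostatic genes, calls went in both directions. Of 25 other surface genes tested, 2 fell and 2 rose in old microglia, with a median of -0.15, and 0 were called by 15 months, with a median of -0.10. Fcrls, an Fc receptor-like gene, fell by 0.39 ± 0.085 (SE), limma adjusted p 0.0494, and Siglech, a sialic acid-binding lectin, fell by 0.37 ± 0.079, limma adjusted p 0.0439. The innate receptor gene Tlr2 rose by 0.96 ± 0.10, limma adjusted p 0.000926, and the signalling adaptor gene Tyrobp, which the activated list also holds, by 0.50 ± 0.10, limma adjusted p 0.0331. Of 26 other secreted or intracellular genes tested, 1 fell, Ltc4s of leukotriene synthesis by 0.50 ± 0.095, limma adjusted p 0.0280, and 2 rose, the complement genes C1qa by 0.68 ± 0.10 and C1qc by 0.54 ± 0.11. Csf1r, the growth factor receptor on which microglia depend, differed by -0.20 ± 0.081, limma adjusted p 0.246. Among the genes of these lists that fell, Ltc4s had the largest difference, -0.50, against -0.87 for Gpr165. The calls of Fcrls and Siglech lay close to the threshold of 0.05. Whether the calls in these lists hold with a library left out was not tested.

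The regulators of the programme were not called at any age. Of 13 microglial identity transcription factors 0 were called, with medians of 0.059 for middle-aged against young, -0.12 for old against young and -0.20 for old against middle-aged. Sall1 stood at 14.09, 14.07 and 14.12 in old libraries, against 14.33, 14.55 and 14.34 in young ones, a difference of -0.31 ± 0.086 (SE) with a limma adjusted p of 0.0960. Of 23 TGF-beta pathway genes 21 were tested and 0 called, with medians of 0.0019, 0.0066 and -0.037 in the same 3 comparisons. Tgfb1, the ligand, differed by 0.017 ± 0.15 and Tgfbr1, its receptor, by -0.15 ± 0.11 between old and young. Activated microglia genes went the other way: of 24 tested, 7 were called higher in middle-aged and 20 in old microglia against young, and 10 in old against middle-aged, with a median of 0.95 for old against young. Cst7 rose by 2.71 ± 0.11, Spp1 by 3.60 ± 0.16, Lpl by 2.57 ± 0.13 and Itgax by 1.97 ± 0.12 in old microglia. This list and those above were chosen with earlier results of these data known.

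**Figure D5:**
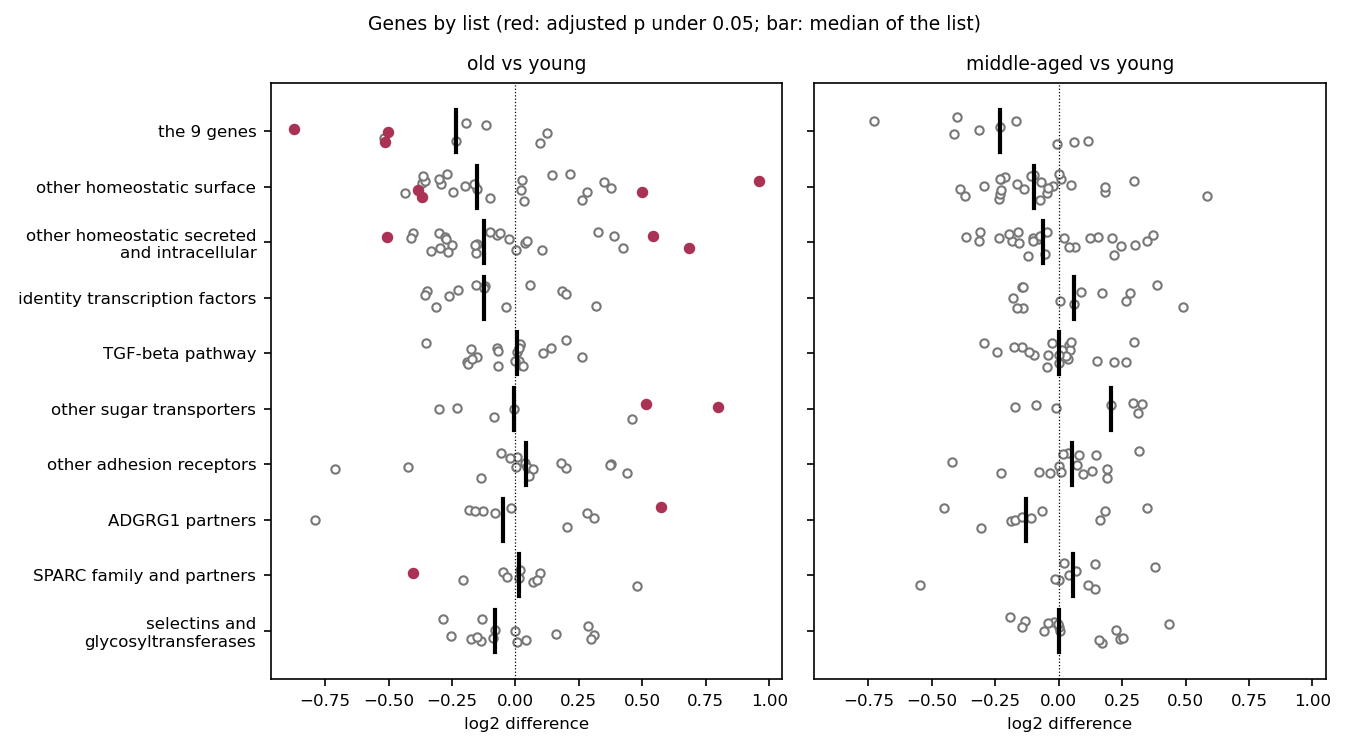
Log2 difference of the tested genes of 10 lists (1 point a gene, filled where the adjusted p was under 0.05) with each list's median (bar), for old against young on the left and middle-aged against young on the right, without the fractalkine, hexose phosphorylation, olfactomedin, crystallin and activated microglia lists. The 9 genes have a median of -0.23 in both panels, and the lists drawn below them have medians from -0.15 to 0.042 on the left and from -0.13 to 0.20 on the right.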

How the data were processed

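Per the labels' protocols, microglia of 3 mice were sorted by flow cytometry and pooled before RNA extraction, and the SMARTer kit for small RNA amounts was used. Per the submitters' processing notes, the build was mm10 and the tools were cutadapt 1.13, STAR 2.5.3, DESeq2 1.16.1 and CASAVA; no source used here gives their roles, the read counter or the annotation. The authors deposited 1 value per gene and library on a log2 scale, from -2.14 to 20.1, whose transformation no source used here describes. These lie close to log2 of the mean signal (base mean) in the authors' deposited comparison tables, which also hold log2 fold changes, a test score and p-values per pair of ages. Read counts are not recoverable from these values, so depth is unknown and no count test was run.

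The deposited log2 values were not transformed further. Testing was limited to genes that reached 3.32, log2 of 10, in at least 3 libraries. One limma 3.58.1 model (R 4.3.3) with a variance trend held all 9 libraries, and two-sided tests of the 3 pairs of ages and of the difference between the steps were adjusted by Benjamini-Hochberg over 14955 genes, with a threshold of 0.05. With 3 libraries a group, an exact permutation test reaches no p under 0.1. Summed levels and shares are of values turned back to the linear scale. The script was tested on simulated data. Same-numbered libraries of different ages did not deviate together throughout (correlations from -0.24 to 0.23), so the numbers were not taken as pairs.

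The members, gene lists and tests were chosen with earlier results of these data known. Named beside the 9 genes are up to 4 called genes per list by smallest p, genes by role, of which some are not reported here, and the tested genes of named symbol most like each member over 9 libraries. Ptgs1, Tmem206 and the other like genes come from that rule; the sheddase names, the marker symbols below the filter and Ngp were named after their values were seen. Gene positions are those of GENCODE M21 on GRCm38, and promoters those of RefSeq on GRCm38.p6. Figures were drawn with matplotlib 3.10.9.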

Additional observations from a re-analysis of the deposited data

How the results depend on the processing

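With 3 pooled libraries an age and unknown depth, confidence intervals are wide (-1.20 to -0.55 for Gpr165, old against young), and p-values rest on limma's pooled spread. The 9 genes gave 711 values under the alternatives, of which 667 kept their direction and side of the threshold, 15 lost a call, 8 gained one and 21 turned sign without being called; the cause was not tested. The 15 lost calls were all for old against young: 9 of Slc2a5, 4 of Gpr165 and 2 of Adgrg1. Scaling moved the median of all genes by less than 0.1.

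Members called lower numbered 2 for old against young without a filter, 2 for middle-aged and 5 for old against young under quantile normalization, 2 for middle-aged under library weights, and 1 and 1 in fits of 2 ages alone. Leaving out a library gave 0 to 1 for middle-aged and 0 to 3 for old against young. Genes called for middle-aged against young, 17 in all, numbered 10 without a filter, 29 with a stricter one (log2 of 50), 312 under library weights and 4 to 49 without 1 library. For old against young, 299 in all, they numbered 170 without a filter, 1609 under library weights, 153 in the fit of 2 ages alone and 84 to 322 without 1 library. For old against middle-aged, 26 in all, they numbered 9, 47, 3 without a variance trend, 62 under library weights, 0 in the fit of 2 ages alone and 3 to 23 without 1 library. Quantile normalization gave 20, 315 and 33 genes for the 3 comparisons in that order. A replicate block gave 11, 185 and 14 genes and changed no member's call. The labels share only a number.

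Signs turned under quantile normalization for Selplg, old against middle-aged, at -0.014, and under library weights for Crybb1, middle-aged against young, at 0.069, and for old against middle-aged for Tmem119 at -0.00081, Cx3cr1 at 0.068, Selplg at -0.075 and Sparc at 0.0054. Leaving out a library took middle-aged against young to -0.018 to 0.14 for Tmem119 and -0.12 to 0.070 for Crybb1, the difference between the steps to -0.10 to 0.054 and -0.22 to 0.081 for the same genes, and old against middle-aged to -0.11 to 0.068 for Selplg, -0.00088 to 0.085 for Olfml3, -0.24 to 0.15 for Cx3cr1, -0.29 to 0.034 for Gpr165 and -0.13 to 0.0087 for Sparc.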
